A study of Mus musculus with 10 samples.

Results

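The FoxO transcription factors and a group of their stress-response genes were followed across mouse liver and 2 kinds of liver tumour. The 10 genes, taken by their symbols from a table of 56748 genes, were the factors Foxo1, Foxo3 and Foxo4 and the genes Sesn1, Sesn3, Pik3ip1, Ccng2, Gadd45a, Klf15 and Pdk4. RNA was sequenced from 3 Akt/Nras/Foxo1AAA tumours, 3 Akt/Nras tumours and 4 normal livers of wild-type FVB mice. The tumours model hepatocellular carcinoma and arose after hydrodynamic tail vein injection, in which plasmid DNA injected fast into the tail vein enters hepatocytes. Akt and Nras were delivered in both tumour groups, and the group titled FoxoAAA in some labels received Foxo1AAA as well. All 3 groups are labelled as wild type in genotype. The promoter that drives the genes, the species and the length of their coding sequence, the age of the mice and any injection of the normal livers were not stated. Nothing says that each library came from a separate animal, so the p-values cover the spread between these libraries alone, which may be technical.

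FoxO proteins are forkhead transcription factors that switch on genes for fasting metabolism, antioxidant defence, growth arrest and restraint of growth signalling. Insulin acts through phosphatidylinositol 3-kinase and the kinase AKT, which phosphorylates FoxO proteins so that they are bound by scaffold proteins and held outside the nucleus. In the liver, active FOXO1 is known for driving glucose output in fasting. Foxo1AAA carries alanine in place of the serines and threonine that AKT phosphorylates, so AKT cannot exclude it from the nucleus. Comparing the tumour groups asks how these genes stand when such a FOXO1 is present together with activated AKT.

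The codons around the AKT consensus in the mouse FoxO genes are shown because Foxo1AAA is altered at such sites of FOXO1. Those of Foxo3 and Foxo4, which it does not alter, are shown for comparison. The consensus was searched as arginine, any residue, arginine, any 2 residues, then serine or threonine. It occurred at 3 places in each of Foxo1, Foxo3 and Foxo4, in open reading frames of 652, 672 and 505 codons read from the supplied GRCm38 transcripts. Codons are counted from 1 at the start codon, each window runs 5′ to 3′ on the coding strand, and capitals mark the serine or threonine codon.
Foxo1 codon 24: cggcagcgctcctgtACCtgg
Foxo1 codon 253: cggagaagagctgcgTCCatg
Foxo1 codon 316: cgtcctcgaaccagcTCAaat
Foxo3 codon 32: cggccacgctcctgtACGtgg
Foxo3 codon 252: cggcggcgtgcggtcTCCatg
Foxo3 codon 314: cgctcgcgcaccaatTCCaac
Foxo4 codon 32: cgtccgcgatcctgcACCtgg
Foxo4 codon 197: cgccgcagggctgccTCCatg
Foxo4 codon 262: cgtccacgaagcagtTCAaat
In all 3 genes the first site ends on a threonine codon and the other two on serine codons. The windows are reference sequence, and the deposited values do not tell the introduced copy of Foxo1 from the animal's own.

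The promoters were searched on both strands for the forkhead motif GTAAACA and for AAAACAA, the core of the insulin response element through which FoxO proteins are known to act. RefSeq promoters of GRCm38.p6, from 250 bases before to 50 bases after the gene start, were available for 9 of the 10 genes as 10 promoters. The forkhead motif occurred in 1 of the 10 and in 3.65% of all 32851 promoters, and the insulin response core in 2 of the 10 and in 9.02% of all. The matches are shown with capitals on the match, on the gene's strand, and a match in letters is not evidence of binding.
Sesn1, forkhead motif on the other strand, 22 bases after a gene start, chr10:41810588-41810616: ccttctacTGTTTACcagccttttgggac
Sesn1, insulin response core on the other strand, 169 bases before another gene start, chr10:41887243-41887303: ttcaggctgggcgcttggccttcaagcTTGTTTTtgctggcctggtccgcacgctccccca
Ccng2, 2 insulin response cores that overlap by 1 base, the first 15 bases before the gene start, chr5:93267512-93267572: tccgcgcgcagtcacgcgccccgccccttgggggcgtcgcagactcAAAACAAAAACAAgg
Sesn1 and Ccng2 were the members with a match in these windows.

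Values are FPKM, fragments scaled to gene length and by a factor per library, so levels can be compared between genes. The factor did not follow the number of reads. A read over 1 kb stood for 0.0854 FPKM in normal liver 1 at 17.5 M reads, and for 0.07 FPKM in Akt/Nras/Foxo1AAA tumour 3 at 15.4 M. The deposited values thus already hold a scaling between libraries beyond the number of reads. Log2 changes are on the log2(FPKM + 1) scale with the SE of the fit, and folds are ratios of mean FPKM. The threshold for a call was an adjusted p of 0.05 over all 12439 tested genes (limma with Benjamini-Hochberg adjustment). Each library rested on 15.4 to 20.7 M reads in the Akt/Nras/Foxo1AAA tumours, 16.2 to 21.3 M in the Akt/Nras tumours and 13.6 to 17.5 M in the normal livers. The FPKM of a library summed to 413812.4 to 444893.0, 349618.6 to 381653.1 and 692009.9 to 743202.8 in the same order of groups, so the scaling between groups matters for small changes. Summed levels of 7 hepatocyte markers were 35262 to 47552 FPKM in Akt/Nras/Foxo1AAA tumours, 29181 to 31281 FPKM in Akt/Nras tumours and 70249 to 74637 FPKM in normal livers. Those of 6 cholangiocyte markers were 2659 to 5384, 4107 to 5802 and 16.1 to 24.2 FPKM. Relative to Akt/Nras tumours, 5 of the 7 hepatocyte markers were higher and 3 of the 6 cholangiocyte markers lower in Akt/Nras/Foxo1AAA tumours. Over all tested genes 7.93% were called higher and 4.13% lower there. Stellate cell and fibroblast markers summed to 77.2 to 104, 113 to 146 and 30.8 to 37.6 FPKM, and no marker of these or of the macrophage, endothelial, lymphocyte and neutrophil lists was at 0 throughout a group. The part of these markers in the results was not tested, and in bulk samples fewer cells of a type and less RNA per cell cannot be told apart.

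Foxo1 (ENSMUSG00000044167, chromosome 3, 52175757 to 52260642, plus strand) is given, like all member genes, in the table's own coordinates, whose build is not named; it also checks the group labels. Its level stood at 83.3, 77.9 and 125 FPKM in the Akt/Nras/Foxo1AAA tumours, at 6.05, 5.37 and 6.01 FPKM in the Akt/Nras tumours and at 6.75, 7.01, 8.02 and 6.93 FPKM in the normal livers. All 3 Akt/Nras/Foxo1AAA tumours were far above the other 7 libraries, and each Akt/Nras tumour was a little below each normal liver. Akt/Nras/Foxo1AAA tumours exceeded Akt/Nras tumours in Foxo1 by 16.4-fold (log2 change 3.79 ± 0.15 SE, 95% interval 3.45 to 4.14, adjusted p = 2.44e-06). They exceeded normal livers by 13.3-fold (3.53 ± 0.14, adjusted p = 3.65e-08). From 12061 to 15462 reads per Akt/Nras/Foxo1AAA tumour stood behind these values, against 827 to 1109 per Akt/Nras tumour and 529 to 685 per normal liver. The table divides the reads by a gene length of 8665 bases, of which 1959 are coding.

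Without the introduced gene, the level of Foxo1 did not pass the test: Akt/Nras tumours averaged 5.81 ± 0.381 FPKM (SD, n = 3) and normal livers 7.18 ± 0.572 FPKM (SD, n = 4), with a log2 change of -0.26 (interval -0.59 to 0.06, adjusted p = 0.129). This direction turned where libraries were scaled to equal totals, with a log2 change of 0.58 that was called higher (adjusted p = 0.00587). The call was made in the lower direction with those 7 libraries alone (adjusted p = 0.0237) and without Akt/Nras/Foxo1AAA tumour 3 (adjusted p = 0.0153).

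Foxo3 (ENSMUSG00000048756, chromosome 10, 42057837 to 42152751, minus strand), a factor known for antioxidant and autophagy genes, stood at 6.69, 6.57 and 6.90 FPKM in the Akt/Nras/Foxo1AAA tumours, at 6.87, 7.26 and 6.67 FPKM in the Akt/Nras tumours and at 10.9, 12.5, 13.3 and 11.8 FPKM in the normal livers. The tumour groups overlapped, and every tumour was below every normal liver. Relative to normal liver Foxo3 was 1.80-fold lower in Akt/Nras/Foxo1AAA tumours (log2 change -0.76 ± 0.08, adjusted p = 1.29e-05) and 1.74-fold lower in Akt/Nras tumours (-0.72 ± 0.08, adjusted p = 1.28e-05). The tumour groups differed by -0.04 on the log2 scale (interval -0.22 to 0.15, adjusted p = 0.8). The lower calls against normal liver were lost under equal totals, where the Akt/Nras tumours differed by 0.16 and the Akt/Nras/Foxo1AAA tumours by -0.11. With totals equal without the 50 most abundant genes the Akt/Nras tumours lost the call as well (-0.08, adjusted p = 0.392). The Akt/Nras/Foxo1AAA tumours kept it there (-0.22, adjusted p = 0.037).

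Foxo4 (ENSMUSG00000042903, chromosome X, 100298134 to 100304479, plus strand), the X-linked member of the family, stood at 13.5, 13.2 and 12.0 FPKM in the Akt/Nras/Foxo1AAA tumours, at 11.6, 12.4 and 10.2 FPKM in the Akt/Nras tumours and at 13.6, 16.6, 14.4 and 14.5 FPKM in the normal livers. Each tumour was below each normal liver, by a narrow margin in the Akt/Nras/Foxo1AAA tumours, and the tumour groups overlapped. The Akt/Nras tumours were called lower than normal liver, 1.29-fold (log2 change -0.35 ± 0.09, adjusted p = 0.00632), and the Akt/Nras/Foxo1AAA tumours were not (-0.18, interval -0.38 to 0.03, adjusted p = 0.113). The log2 change between the tumour groups was 0.17 (interval -0.05 to 0.39, adjusted p = 0.289). With array weights Foxo4 was called higher in Akt/Nras/Foxo1AAA than in Akt/Nras tumours (0.26, adjusted p = 0.0266). The lower call of the Akt/Nras tumours against normal liver was lost with upper-quartile scaling (-0.14, adjusted p = 0.217). With equal totals both tumour groups were called higher than normal liver (0.49, adjusted p = 0.000838, in Akt/Nras/Foxo1AAA and 0.56, adjusted p = 0.000254, in Akt/Nras tumours).

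**Figure D1:**
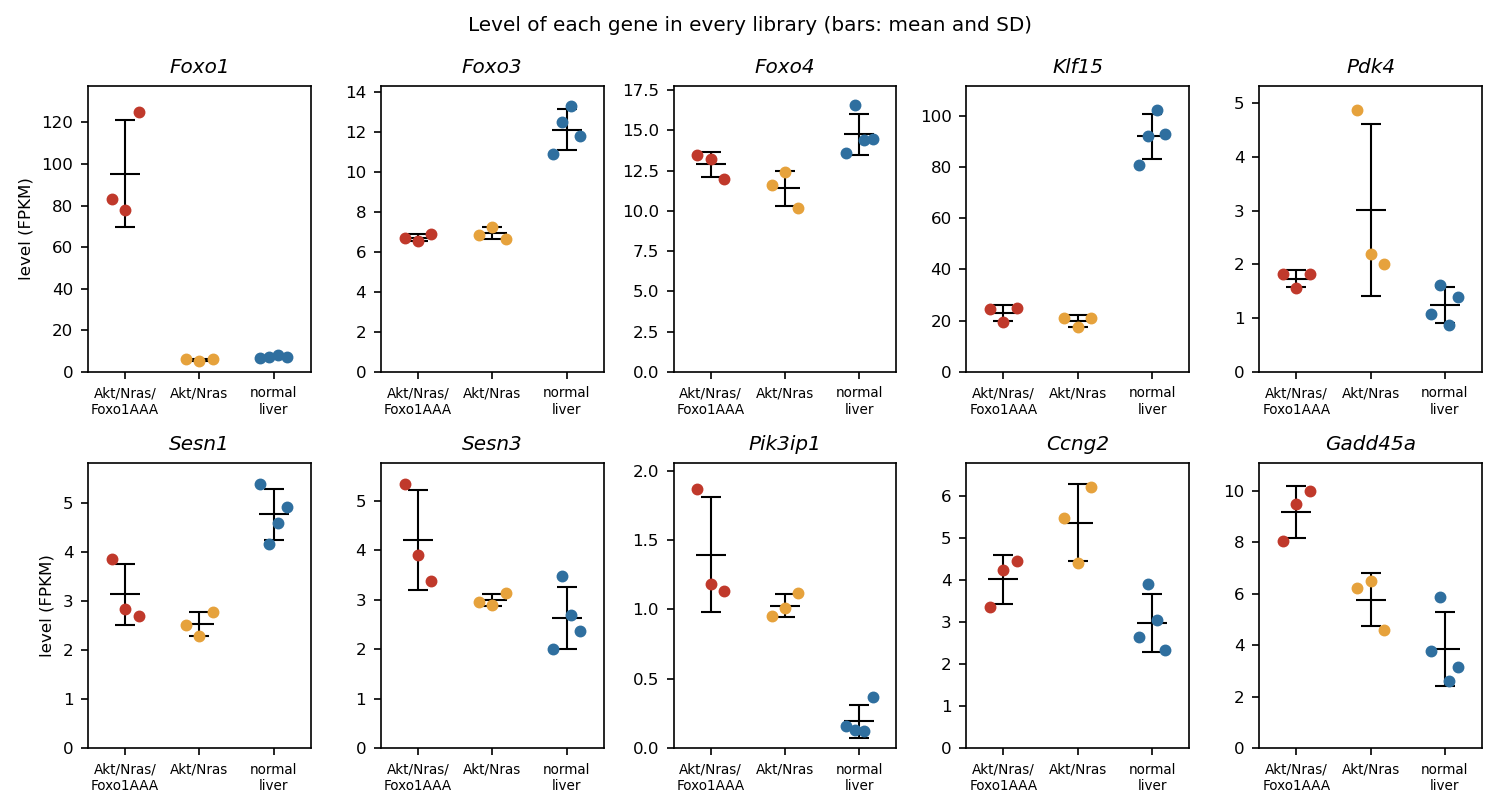
Level of each of the 10 genes in FPKM on a linear axis from 0, with a point per library and bars at the mean and SD of the Akt/Nras/Foxo1AAA tumours, the Akt/Nras tumours and the normal livers. Foxo1 stands apart in the Akt/Nras/Foxo1AAA tumours at 77.9 to 125 FPKM, and Klf15 in the normal livers at 80.9 to 102 FPKM.

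A share within a family does not depend on how libraries were scaled. Of the summed FPKM of Foxo1, Foxo3, Foxo4 and Foxo6, Foxo1 held 82.3 ± 3.99% in Akt/Nras/Foxo1AAA tumours, 24 ± 2.43% in Akt/Nras tumours and 21.1 ± 1.31% in normal livers (SD, n = 3, 3 and 4). Foxo4 held the largest share in Akt/Nras tumours at 47 ± 2.5% and in normal livers at 43.3 ± 2.31%, against 11.6 ± 2.86% in Akt/Nras/Foxo1AAA tumours. The share of Foxo3 was 5.99 ± 1.04% in Akt/Nras/Foxo1AAA tumours, 28.6 ± 0.539% in Akt/Nras tumours and 35.4 ± 1.24% in normal livers, with no overlap between any of the groups. The sum in Akt/Nras/Foxo1AAA tumours includes the introduced Foxo1, so smaller shares of Foxo3 and Foxo4 there follow by arithmetic. In level these genes differed between the tumour groups by -0.04 and 0.17 on the log2 scale, and neither was called, though Foxo4 was with array weights. Foxo6, known mainly from the brain, averaged 0.122, 0.109 and 0.0596 FPKM in the same order, with no read in normal livers 3 and 4, and was not tested. In these small groups the exact two-sided permutation test cannot go below p = 0.0571 against normal liver or p = 0.1 between tumour groups, and the lowest adjusted p over the 48 shares and pairs was 0.161. No share therefore passed 0.05.

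**Figure D2:**
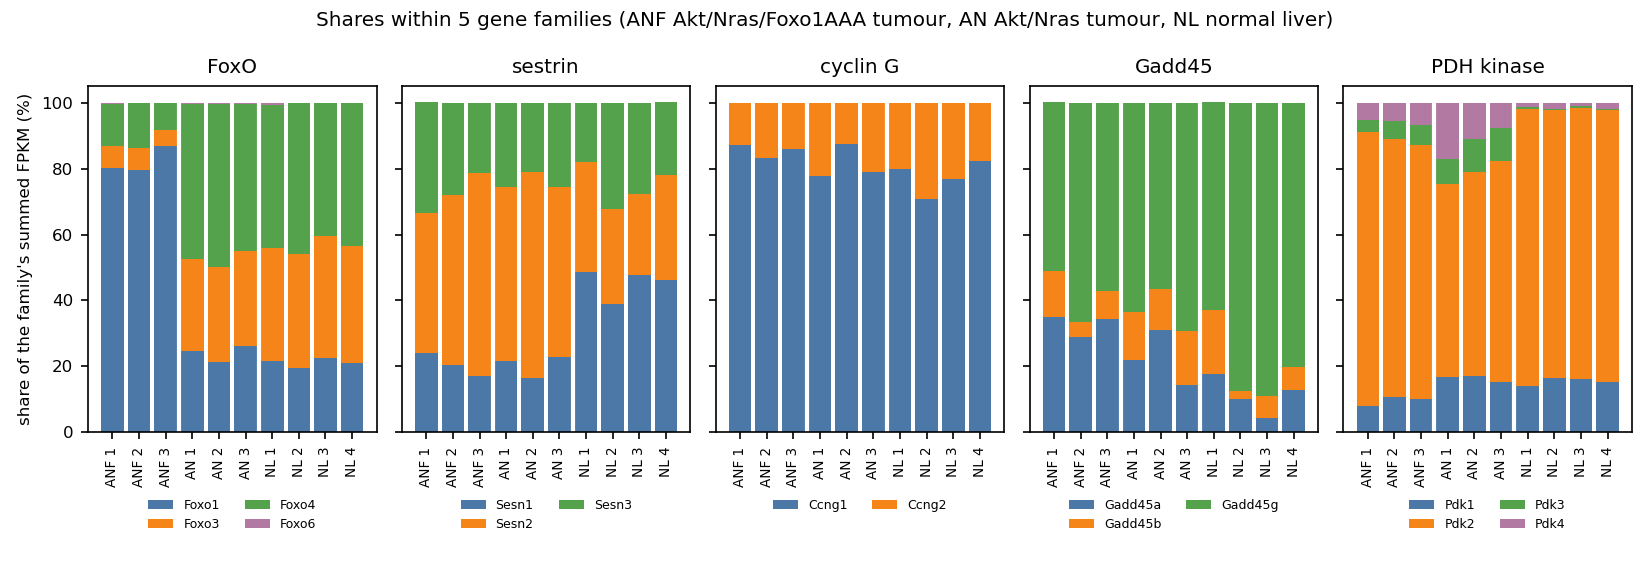
Share of each gene in the summed FPKM of its family, in percent, as 1 stacked bar per library, for the FoxO, sestrin, cyclin G, Gadd45 and pyruvate dehydrogenase kinase families (ANF, Akt/Nras/Foxo1AAA tumour; AN, Akt/Nras tumour; NL, normal liver). Foxo1 held 79.6 to 86.8% of the FoxO family in Akt/Nras/Foxo1AAA tumours, 21.3 to 26.1% in Akt/Nras tumours, and in normal livers 19.4 to 22.5%.

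Klf15 (ENSMUSG00000030087, chromosome 6, 90439558 to 90452220, plus strand), a zinc-finger factor induced by fasting and glucocorticoids that drives amino acid breakdown and glucose output, fell the most of the members in both tumour groups. Its levels were 24.5, 19.5 and 25.1 FPKM in the Akt/Nras/Foxo1AAA tumours, 21.1, 17.3 and 21.1 FPKM in the Akt/Nras tumours and 80.9, 91.9, 102 and 92.7 FPKM in the normal livers. All 6 tumours were below all 4 normal livers, and the tumour groups overlapped. Klf15 was 4.00-fold lower in Akt/Nras/Foxo1AAA tumours than in normal liver (log2 change -1.96 ± 0.12, adjusted p = 3.51e-07) and 4.64-fold lower in Akt/Nras tumours (-2.16 ± 0.12, adjusted p = 1.01e-07). The difference between the tumour groups was 0.20 (interval -0.08 to 0.48, adjusted p = 0.321), and turned to -0.04 with equal totals. The lower calls against normal liver held under all scalings tried, at -1.21 in Akt/Nras tumours with equal totals.

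Pdk4 (ENSMUSG00000019577, chromosome 6, 5483351 to 5496309, minus strand), a mitochondrial kinase that blocks pyruvate dehydrogenase and so spares glucose in fasting, was low throughout. It stood at 1.82, 1.56 and 1.83 FPKM in the Akt/Nras/Foxo1AAA tumours, at 4.87, 2.19 and 2.0 FPKM in the Akt/Nras tumours and at 1.07, 1.62, 0.863 and 1.39 FPKM in the normal livers. Akt/Nras tumour 1 was the highest by far, the Akt/Nras tumours did not overlap either other group, and the Akt/Nras/Foxo1AAA tumours overlapped normal liver. Pdk4 was called higher in Akt/Nras tumours than in normal liver, 2.45-fold (log2 change 0.79 ± 0.21, adjusted p = 0.00729), with a log2 change of 0.48 that was still called without Akt/Nras tumour 1. In Akt/Nras/Foxo1AAA tumours the log2 change against normal liver was 0.30 (interval -0.17 to 0.78, adjusted p = 0.237), and 0.70 with equal totals, where it was called (adjusted p = 0.0144). The difference between the tumour groups was -0.49 (interval -1.0 to 0.02, adjusted p = 0.191), -0.18 without Akt/Nras tumour 1, or -0.70 with equal totals, where it was called lower (adjusted p = 0.046).

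The other pyruvate dehydrogenase kinases differed among themselves. Pdk2, the main form by level, averaged 24.3 ± 4.32 FPKM in Akt/Nras/Foxo1AAA tumours, 15.7 ± 2.95 in Akt/Nras tumours and 71.3 ± 3.86 in normal livers. It fell in both tumour groups against normal liver (-1.53 in Akt/Nras/Foxo1AAA, adjusted p = 5.26e-06, and -2.13 in Akt/Nras tumours, adjusted p = 3.05e-07). Pdk3 averaged 1.52 ± 0.172, 2.28 ± 0.382 and 0.398 ± 0.0653 FPKM in the same order and rose against normal liver in both (0.85, adjusted p = 4.32e-05, and 1.23, adjusted p = 2.02e-06). No normal liver reached 1 FPKM in Pdk3, at 8 to 12 reads each, so this gene entered the test through the tumours. Pdk1 averaged 2.90 ± 0.105, 4.11 ± 0.713 and 13.4 ± 1.80 FPKM and fell in both (-1.88, adjusted p = 4.47e-07, and -1.5, adjusted p = 1.12e-06). Pdk4 held 5.76 ± 0.787% of the family in Akt/Nras/Foxo1AAA tumours, 11.8 ± 4.79% in Akt/Nras tumours and 1.42 ± 0.335% in normal livers, with no overlap between the groups. Pdk2 was called between the tumour groups as higher in Akt/Nras/Foxo1AAA tumours (0.61, adjusted p = 0.0271). It was not called with the 6 tumours alone (adjusted p = 0.107), with no filter on low values (0.0637) or without Akt/Nras/Foxo1AAA tumour 1 or 2 or Akt/Nras tumour 2 (0.0608 to 0.0979). Pdk1 and Pdk3 were not called between the tumour groups as deposited. With equal totals both were called lower in Akt/Nras/Foxo1AAA tumours (-0.60, adjusted p = 0.0075, and -0.58, adjusted p = 0.00765), as they were with upper-quartile scaling and with array weights.

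The sestrins are stress-induced proteins that restrain the growth kinase complex mTORC1. Sesn1 (ENSMUSG00000038332, chromosome 10, 41685931 to 41784420, plus strand) stood at 3.86, 2.85 and 2.71 FPKM in the Akt/Nras/Foxo1AAA tumours, at 2.52, 2.29 and 2.79 FPKM in the Akt/Nras tumours and at 5.4, 4.17, 4.59 and 4.93 FPKM in the normal livers. Every tumour was below every normal liver, and the tumour groups overlapped. Sesn1 was 1.52-fold lower than in normal liver in Akt/Nras/Foxo1AAA tumours (log2 change -0.49 ± 0.11, adjusted p = 0.00353) and 1.88-fold lower in Akt/Nras tumours (-0.71 ± 0.11, adjusted p = 0.000251). With equal totals both directions turned, to 0.08 and 0.05, and neither was called. With totals equal without the 50 most abundant genes both lower calls were lost as well (-0.01, adjusted p = 0.935, and -0.16, adjusted p = 0.22). The log2 change between the tumour groups was 0.22 (interval -0.05 to 0.49, adjusted p = 0.264).

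Sesn3 (ENSMUSG00000032009, chromosome 9, 14186363 to 14244397, plus strand) stood at 5.33, 3.91 and 3.37 FPKM in the Akt/Nras/Foxo1AAA tumours, at 2.95, 2.89 and 3.13 FPKM in the Akt/Nras tumours and at 2.0, 3.47, 2.69 and 2.36 FPKM in the normal livers. Akt/Nras/Foxo1AAA tumour 1 was the highest, the tumour groups did not overlap, and both overlapped normal liver through normal liver 2. Sesn3 was called higher in Akt/Nras/Foxo1AAA tumours than in normal liver, 1.60-fold (log2 change 0.52 ± 0.15, adjusted p = 0.012), and lost that call without Akt/Nras/Foxo1AAA tumour 1 (0.37, adjusted p = 0.0555). In Akt/Nras tumours the log2 change against normal liver was 0.15 (interval -0.18 to 0.49, adjusted p = 0.391), and 0.86 with equal totals, where it was called (adjusted p = 0.000108). Between the tumour groups it was 0.37 (interval 0.01 to 0.72, adjusted p = 0.166).

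Sesn1 held 20.6 ± 3.47% of the summed sestrin FPKM in Akt/Nras/Foxo1AAA tumours, 20.3 ± 3.26% in Akt/Nras tumours and 45.3 ± 4.50% in normal livers. Sesn2, which is known to be induced by amino acid and mitochondrial stress, held 51.8 ± 9.45%, 55.7 ± 5.82% and 29.6 ± 3.76% in the same order. The tumours did not overlap normal liver in either share (exact permutation p = 0.0571 for each tumour group, adjusted p = 0.161, the smallest p these groups allow, so that neither could pass), whereas Sesn3 shares overlapped between all groups. The level of Sesn2 rose to 7.87 ± 1.55 FPKM in Akt/Nras/Foxo1AAA tumours and 7.04 ± 1.35 FPKM in Akt/Nras tumours, against 3.14 ± 0.555 FPKM in normal livers (log2 changes 1.10 and 0.96, adjusted p = 0.000111 and 0.000232).

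Pik3ip1 (ENSMUSG00000034614, chromosome 11, 3280401 to 3292971, plus strand) encodes a membrane protein that binds phosphatidylinositol 3-kinase and restrains it upstream of AKT. It was the lowest member by level, at 1.87, 1.18 and 1.13 FPKM in the Akt/Nras/Foxo1AAA tumours, 0.954, 1.01 and 1.12 FPKM in the Akt/Nras tumours and 0.160, 0.130, 0.122 and 0.372 FPKM in the normal livers. All 6 tumours were above all 4 normal livers, and each Akt/Nras/Foxo1AAA tumour was above each Akt/Nras tumour, the closest pair at 1.13 and 1.12 FPKM. Pik3ip1 was 7.10-fold higher in Akt/Nras/Foxo1AAA tumours than in normal liver (log2 change 0.99 ± 0.13, adjusted p = 7.58e-05) and in Akt/Nras tumours 5.25-fold (0.77 ± 0.13, adjusted p = 0.000373). From 69 to 145, 67 to 102 and 5 to 14 reads per library stood behind these levels, and no normal liver reached 1 FPKM, so the gene entered the test through the tumours. Both calls against normal liver held under all scalings tried. The log2 change between the tumour groups was 0.23 (interval -0.09 to 0.54, adjusted p = 0.321).

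Ccng2 (ENSMUSG00000029385, chromosome 5, 93415116 to 93424090, plus strand), cyclin G2, is an atypical cyclin linked to cell cycle exit and a known FoxO target. Its levels were 3.36, 4.25 and 4.45 FPKM in the Akt/Nras/Foxo1AAA tumours, 5.49, 4.40 and 6.21 FPKM in the Akt/Nras tumours and 2.64, 3.90, 3.06 and 2.33 FPKM in the normal livers. The Akt/Nras tumours were above all normal livers, while the Akt/Nras/Foxo1AAA tumours lay between and overlapped both other groups. Ccng2 rose 1.80-fold in Akt/Nras tumours relative to normal liver (log2 change 0.68 ± 0.15, adjusted p = 0.00191). In Akt/Nras/Foxo1AAA tumours it narrowly missed the threshold (0.34, interval 0.01 to 0.67, adjusted p = 0.0657) and passed it under all 4 other scalings (log2 change 0.41 to 0.88, adjusted p = 0.000173 to 0.0352), with array weights (0.45, adjusted p = 0.00542), without Akt/Nras/Foxo1AAA tumour 1 (adjusted p = 0.0406) and without normal liver 2 (adjusted p = 0.0171). The log2 change between the tumour groups was -0.34 (interval -0.69 to 0.01, adjusted p = 0.188), or -0.56 with equal totals, where it was called lower (adjusted p = 0.0186). Its paralog Ccng1, a p53 target, averaged 23.8 ± 3.42 FPKM, 24.5 ± 6.02 FPKM and 10.2 ± 0.626 FPKM and rose in both tumour groups against normal liver (1.14, adjusted p = 6.52e-05, and 1.16, adjusted p = 4.24e-05).

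Gadd45a (ENSMUSG00000036390, chromosome 6, 67012080 to 67014441, minus strand), a growth arrest and DNA damage gene controlled by p53 and by FoxO factors, stood at 8.06, 9.48 and 10 FPKM in the Akt/Nras/Foxo1AAA tumours, at 6.24, 6.51 and 4.58 FPKM in the Akt/Nras tumours and at 3.78, 5.88, 2.61 and 3.15 FPKM in the normal livers. The Akt/Nras/Foxo1AAA tumours were above all other libraries, and normal liver 2 lay within the range of the Akt/Nras tumours. Gadd45a was 2.38-fold higher in Akt/Nras/Foxo1AAA tumours than in normal liver (log2 change 1.11 ± 0.20, adjusted p = 0.000638). In Akt/Nras tumours it was called 1.5-fold higher than in normal liver (0.51 ± 0.20, adjusted p = 0.0401), and lost the call without Akt/Nras tumour 1 (adjusted p = 0.111) or 2 (0.127), without normal liver 1 (0.065), 3 (0.101) or 4 (0.0938) and without Akt/Nras/Foxo1AAA tumour 2 (0.0533). Relative to Akt/Nras tumours it was 1.59-fold higher in Akt/Nras/Foxo1AAA tumours, 3 of 3 libraries above 3 of 3, and did not pass the test (0.60, interval 0.12 to 1.07, adjusted p = 0.0952). This comparison passed without normal liver 2 (adjusted p = 0.0347), whose removal changes the shared estimate of the spread, and with array weights (0.76, adjusted p = 0.00685).

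Among the Gadd45 genes, Gadd45a held 32.8 ± 3.46% of the summed FPKM in Akt/Nras/Foxo1AAA tumours, 22.4 ± 8.35% in Akt/Nras tumours and 11.3 ± 5.5% in normal livers. The Akt/Nras/Foxo1AAA tumours did not overlap normal liver in this share, and the Akt/Nras tumours overlapped both. Gadd45g was the main form, at 11.7 to 21.9 FPKM in Akt/Nras/Foxo1AAA tumours, 11.8 to 21.9 FPKM in Akt/Nras tumours and 13.5 to 51.9 FPKM in normal livers. Neither Gadd45g nor Gadd45b, which stayed between 1.47 and 5.20 FPKM, was called in any comparison.

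Counted together, 4 of the 10 members were higher and 3 lower in Akt/Nras/Foxo1AAA tumours than in normal liver, where 26.8% of all tested genes were called higher and 36.5% lower. In Akt/Nras tumours 4 were higher and 4 lower, where 31.1% and 37.9% of all tested genes were called. With so many genes called, 7 and 8 of 10 members stand near the background. The higher calls include Pik3ip1, which entered the test through the tumours, and in Akt/Nras/Foxo1AAA tumours the introduced Foxo1. Groups did not overlap for 7 and 8 of the 10 members, beside 65.4% of all tested genes in Akt/Nras/Foxo1AAA and 68.3% in Akt/Nras tumours. Both comparisons use the same 4 normal livers. The median log2 change of the members was 0.32 in Akt/Nras/Foxo1AAA tumours (-0.09 over all tested genes) and -0.06 in Akt/Nras tumours (-0.07 over all). Without Foxo1 it was 0.3 and 0.15.

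Between the tumour groups, Foxo1 itself was the one member called, where 7.93% of all tested genes were called higher and 4.13% lower in Akt/Nras/Foxo1AAA tumours. Of the other 9, none passed the test (limma, adjusted p = 0.0952 to 0.8), and 2, Gadd45a and Sesn3, had an unadjusted p under 0.05. The median log2 change of these 9 was 0.20, and -0.01 over all tested genes. The groups did not overlap for 31.9% of all tested genes and for 5 of the 10 members, which were Foxo1, Sesn3, Pik3ip1, Gadd45a and, in the lower direction, Pdk4. An adjusted p above the threshold does not show that the groups were alike: the intervals reach 0.72 for Sesn3, 1.07 for Gadd45a and -1.0 for Pdk4 on the log2 scale.

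**Figure D3:**
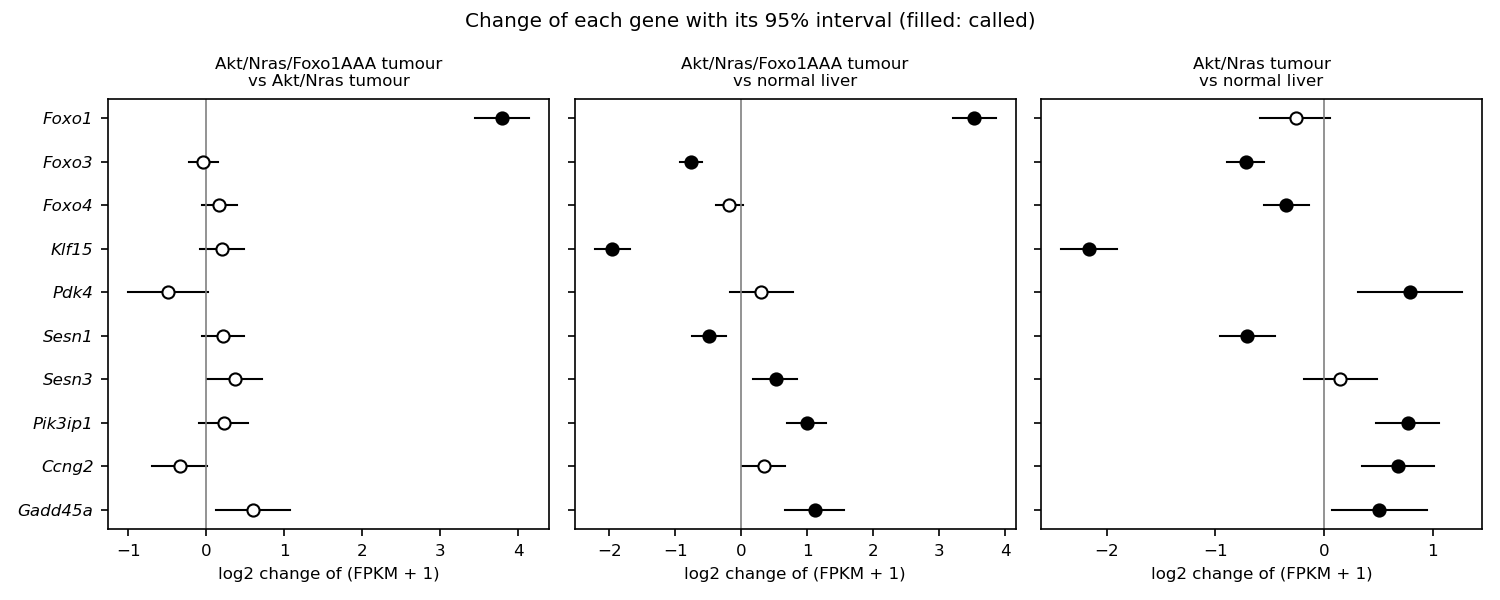
Log2 change of each member on the log2(FPKM + 1) scale with its 95% interval in the 3 comparisons, filled where called at an adjusted p under 0.05. Between the tumour groups Foxo1 is the one filled point, at 3.79.

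The choice of scaling set several directions against normal liver. Equal totals takes away the factor per library in the deposited values and puts the sum of FPKM in its place. With equal totals the median log2 change of all genes was 0.46 in Akt/Nras/Foxo1AAA and 0.70 in Akt/Nras tumours, against -0.09 and -0.07 with the deposited scaling. Of the calls against normal liver, 81.8% and 83.4% were then in the higher direction, against 42.3% and 45.1% as deposited. Relative to the median of all genes under that scaling, Foxo3 was at -0.57 in Akt/Nras/Foxo1AAA and -0.54 in Akt/Nras tumours, Sesn1 at -0.38 and -0.65, and Foxo4 at 0.03 and -0.14. Klf15 was at -1.91 relative to that median in Akt/Nras tumours. Klf15 kept a lower call, and Pik3ip1 and Gadd45a a higher one, in both tumour groups under all 4 other scalings. Foxo1 and Sesn3 in Akt/Nras/Foxo1AAA tumours and Ccng2 and Pdk4 in Akt/Nras tumours kept a higher call under them as well.

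**Figure D4:**
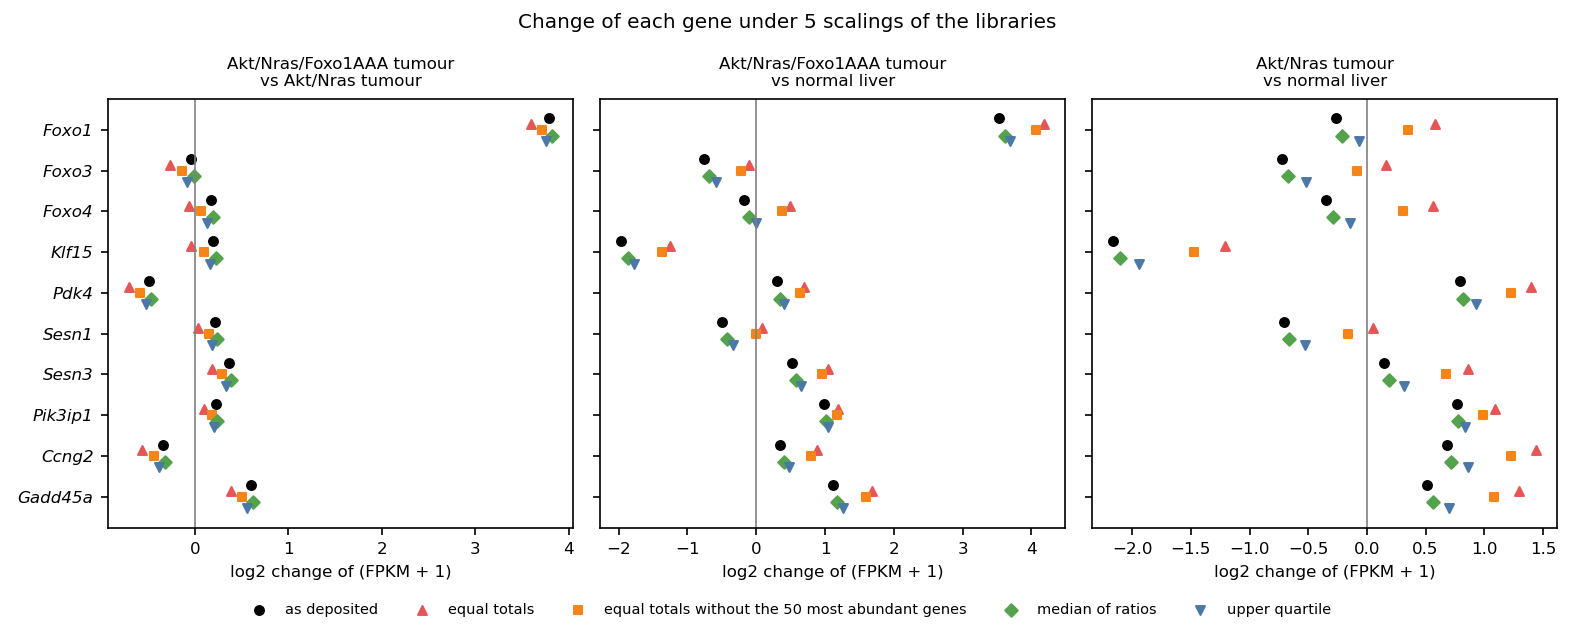
Log2 change of each member under the deposited scaling and 4 others, in the 3 comparisons, on the log2(FPKM + 1) scale. Foxo1, Foxo3, Foxo4 and Sesn1 cross 0 between scalings in Akt/Nras tumours against normal liver, as do Foxo4 and Sesn1 in Akt/Nras/Foxo1AAA tumours, while Klf15 stays below 0 in both.

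In level per gene length, Foxo1 led the members in Akt/Nras/Foxo1AAA tumours at 95.4 ± 25.7 FPKM, followed by Klf15 at 23 ± 3.09, Foxo4 at 12.9 ± 0.801, Gadd45a at 9.18 ± 1.01 and Foxo3 at 6.72 ± 0.166, with no overlap between these neighbours. Sesn3, Ccng2 and Sesn1 followed with overlapping ranges, and Pdk4 and Pik3ip1, the lowest, overlapped as well. In Akt/Nras tumours the order began with Klf15 at 19.8 ± 2.23 FPKM, Foxo4 at 11.4 ± 1.11 and Foxo3 at 6.93 ± 0.3, again without overlap. Foxo1, Gadd45a and Ccng2 came next with overlapping ranges, then Pdk4, Sesn3 and Sesn1, and last Pik3ip1. The range of Pdk4 overlapped those of Sesn3 and Sesn1 and, through Akt/Nras tumour 1, those of Gadd45a and Ccng2. In normal livers Klf15 led at 92 ± 8.81 FPKM, then came Foxo4 at 14.8 ± 1.29, Foxo3 at 12.1 ± 1.03 and Foxo1 at 7.18 ± 0.572, without overlap. Below them Sesn1, Gadd45a, Ccng2 and Sesn3 each overlapped the next, and Pdk4 and Pik3ip1 stood apart at the low end.

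Among 16 tested kinases of FoxO proteins, 4 were higher and 5 lower in Akt/Nras/Foxo1AAA tumours than in normal liver, and 5 were higher and 5 lower in Akt/Nras tumours. These counts stand near the background. For this list and those below, 26.8% of all tested genes were called higher and 36.5% lower in Akt/Nras/Foxo1AAA tumours. In Akt/Nras tumours 31.1% and 37.9% were, and between the tumour groups 7.93% and 4.13%. Akt1, one of the AKT kinase genes, averaged 880 ± 280 FPKM in Akt/Nras/Foxo1AAA tumours, 880 ± 139 FPKM in Akt/Nras tumours and 21.1 ± 0.442 FPKM in normal livers. The tumour groups differed in it by -0.03 on the log2 scale (adjusted p = 0.927), and reads of an introduced Akt are not told from the animal's own. Sgk2, a kinase related to AKT, averaged 4.50 ± 1.68, 1.26 ± 0.153 and 13.9 ± 0.664 FPKM in the same order. It fell in both tumour groups (-1.48, adjusted p = 2.87e-05, and -2.72, adjusted p = 2.47e-07) and was the one kinase called between them, 1.24 higher in Akt/Nras/Foxo1AAA tumours (adjusted p = 0.00517). Prkaa2, a catalytic subunit of the energy sensor AMPK, fell in both against normal liver (-0.85, adjusted p = 6.12e-06, and -0.94, adjusted p = 1.78e-06), while the other catalytic subunit, Prkaa1, rose in both (0.50, adjusted p = 0.00143, and 0.85, adjusted p = 2.71e-05). With equal totals Prkaa2 was not called in Akt/Nras tumours (-0.07, adjusted p = 0.41). Sgk1, another relative of AKT, rose in Akt/Nras tumours (1.56, adjusted p = 0.00159) and was not called in Akt/Nras/Foxo1AAA tumours (0.51, adjusted p = 0.197).

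Of 17 tested other modifiers and partners of FoxO proteins, 6 were higher and 4 lower in Akt/Nras/Foxo1AAA tumours than in normal liver, and 7 higher and 4 lower in Akt/Nras tumours. Beside them stand the shares of all tested genes given for the kinases. Ywhaz, a scaffold protein of the kind that holds phosphorylated FoxO in the cytoplasm, rose in both (0.91, adjusted p = 5.99e-06, and 1.18, adjusted p = 5.45e-07), as did its relative Ywhag (0.81, adjusted p = 7.94e-06, and 0.72, adjusted p = 1.3e-05). Ogt, which attaches a sugar to FOXO1 and other proteins, fell in both (-0.86, adjusted p = 0.000178, and -0.73, adjusted p = 0.000442), as did the deacetylase gene Sirt2 (-0.45, adjusted p = 0.00105, and -0.54, adjusted p = 0.000239). With equal totals Ogt was not called in either, at -0.23 and 0.12, and Sirt2 turned to 0.36 in Akt/Nras tumours, where it was called higher (adjusted p = 0.00153). Of the 17, 2 were called between the tumour groups, both lower in Akt/Nras/Foxo1AAA tumours. Prmt1, the gene of an arginine methyltransferase that acts on FOXO1, averaged 15.1 ± 0.979, 23.1 ± 2.88 and 10.6 ± 1.86 FPKM (-0.58 between the tumour groups, adjusted p = 0.024), and the deacetylase gene Sirt1 1.21 ± 0.116, 1.87 ± 0.119 and 3.09 ± 0.419 FPKM (-0.38, adjusted p = 0.0419).

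Known FoxO target genes outside the members were read from 5 lists with 58 genes, 54 of them tested. In Akt/Nras/Foxo1AAA tumours 10 were higher and 28 lower than in normal liver (median log2 change -0.42), and in Akt/Nras tumours 12 were higher and 33 lower (median -0.75). Calls over all tested genes were 26.8% higher and 36.5% lower, and 31.1% and 37.9%, in the same order. Scaled to equal totals, calls were made for 23 in the higher and 14 in the lower direction in Akt/Nras/Foxo1AAA and for 22 and 16 in Akt/Nras tumours, so that 62.2% and 57.9% of the called targets were higher, beside the 81.8% and 83.4% of all calls given above. With median-of-ratios scaling 10 were higher and 28 lower, and 12 higher and 32 lower, and with the upper quartile 11 and 26, and 14 and 30. Between the tumour groups 9 were higher in Akt/Nras/Foxo1AAA tumours and 0 lower (median 0.14; 9 and 0 of 54 beside the 7.93% and 4.13% of all genes given above). The count in the higher direction was 0 with the 6 tumours alone, 4 with no filter on low values, 14 (and 2 lower) with a minimum of 5 FPKM and 19 (and 5 lower) with array weights. It was 3 without Akt/Nras/Foxo1AAA tumour 1 and 4 without Akt/Nras/Foxo1AAA tumour 2. With equal totals 7 were higher and 4 lower. Of the 7 hepatocyte markers 5 were also higher in these tumours than in Akt/Nras tumours, and their part in the count was not tested. With the 6 tumours alone the called targets named here and Sgk2, Prmt1, Sirt1, Per1, Cpt1a, Acadm and Acot1 of the other lists had adjusted p-values of 0.0549 to 0.132. With any 1 library left out, the calls of Selenop, Pink1 and Sgk2 between the tumour groups held. Those of Mttp and Acot1 were lost without Akt/Nras/Foxo1AAA tumour 1 (adjusted p = 0.0582 and 0.0532) and that of Erbb3 without Akt/Nras tumour 2 (0.0547). Cat and Prmt1 lost theirs without Akt/Nras/Foxo1AAA tumour 1 or 2 or Akt/Nras tumour 1 (0.0643 to 0.0926), and Cpt1a without Akt/Nras/Foxo1AAA tumour 1 or Akt/Nras tumour 3 (0.0559 to 0.0723). Apoc3 and Gabarapl1 lost theirs without Akt/Nras/Foxo1AAA tumour 1 or 2 or Akt/Nras tumour 1 or 2 (0.0631 to 0.0989), and Nbr1 without Akt/Nras/Foxo1AAA tumour 1 or 2 or Akt/Nras tumour 1 or 3 (0.0585 to 0.0858). Sirt1, Acadm and Per1 lost theirs without any of 8 or 9 single libraries, normal livers 1 and 4 among them (0.0535 to 0.124).

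**Figure D5:**
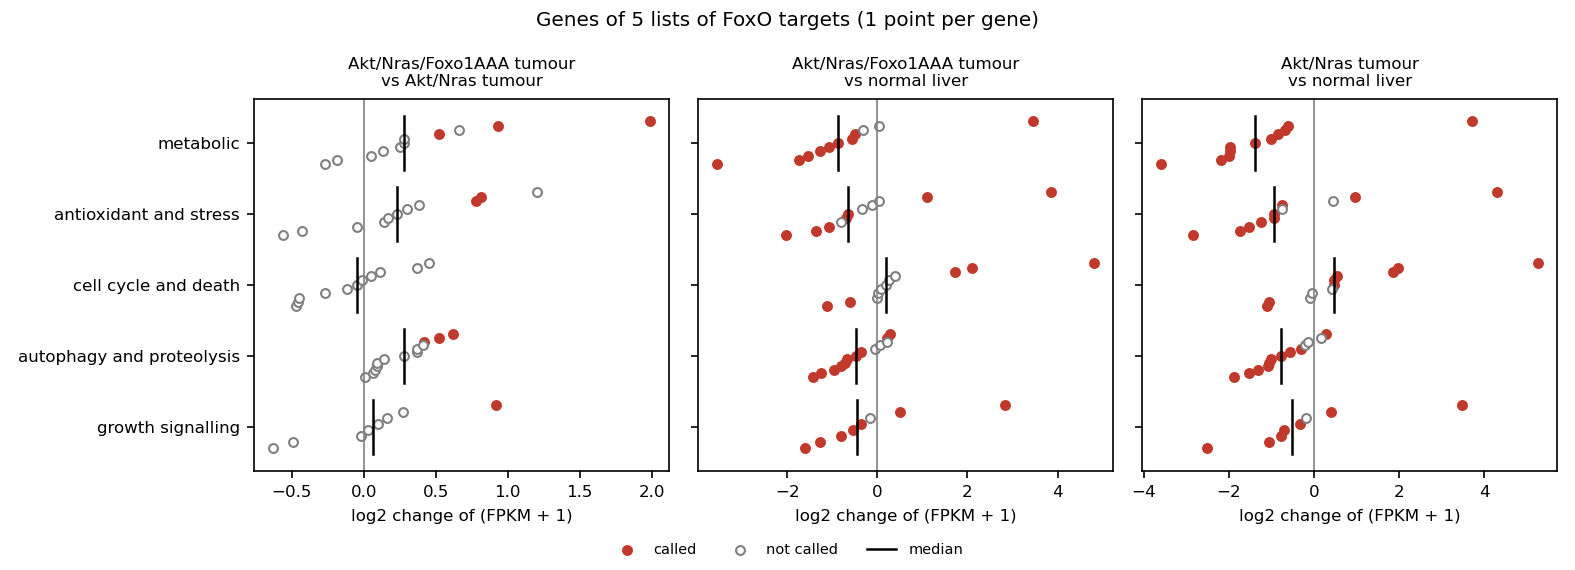
Log2 change of the tested genes of the 5 FoxO target lists in the 3 comparisons, a point per gene, filled where called at an adjusted p under 0.05, with a line at the median of each list. With the deposited scaling most points lie below 0 against normal liver in both tumour groups, and between the tumour groups all 9 filled points lie above 0.

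The 9 genes were spread over 4 of the lists. Of 11 metabolic targets 3 were higher, among them Apoc3 and Mttp. Apoc3, which slows the clearance of triglyceride-rich particles, averaged 1700 ± 507 FPKM in Akt/Nras/Foxo1AAA tumours, 875 ± 196 FPKM in Akt/Nras tumours and 3431 ± 156 FPKM in normal livers (0.93 between the tumour groups, adjusted p = 0.0263), and Mttp, which loads lipid onto them, 35.3 ± 4.41, 24.3 ± 2.63 and 50.2 ± 2.75 FPKM (0.52, adjusted p = 0.0162).

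Of 11 antioxidant and stress targets 2 were higher. Cat, catalase, averaged 379 ± 104 FPKM in Akt/Nras/Foxo1AAA tumours, 211 ± 19.3 in Akt/Nras tumours and 1509 ± 131 in normal livers (0.81 between the tumour groups, adjusted p = 0.0209), so it was 3.98-fold and 7.14-fold lower than in normal liver. Selenop, a secreted selenium carrier, averaged 1636 ± 199, 957 ± 137 and 1593 ± 111 FPKM (0.78, adjusted p = 0.00924). Sod2, the mitochondrial superoxide dismutase, fell in both tumour groups against normal liver (-1.35, adjusted p = 2.41e-06, and -1.73, adjusted p = 2.63e-07), whereas Ddit4, an inhibitor of mTORC1, rose in both (3.86, adjusted p = 7e-07, and 4.30, adjusted p = 1.89e-07).

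Of 13 tested autophagy and proteolysis targets 3 were higher between the tumour groups, namely Gabarapl1, which coats autophagosomes, the mitophagy kinase gene Pink1 and the cargo receptor gene Nbr1 (0.62, 0.52 and 0.42, adjusted p = 0.0258, 0.0109 and 0.0233). Gabarapl1 averaged 113 ± 22.3 FPKM in Akt/Nras/Foxo1AAA tumours, 72.8 ± 11.1 in Akt/Nras tumours and 267 ± 18.2 in normal livers. Against normal liver 8 of these 13 fell in Akt/Nras/Foxo1AAA tumours and 9 in Akt/Nras tumours, such as Bnip3 (-1.43, adjusted p = 3.11e-05, and -1.52, adjusted p = 1.42e-05). The rises were small, Becn1 by 0.28 and 0.27 (adjusted p = 0.00893 and 0.0106) and Atg12 by 0.22 in Akt/Nras/Foxo1AAA tumours (adjusted p = 0.0475). The call of Atg12 was lost when any library other than Akt/Nras tumour 1 was left out (adjusted p = 0.0512 to 0.113).

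Of 8 tested growth signalling targets 1 was higher between the tumour groups, Erbb3, a receptor that passes neuregulin signals to phosphatidylinositol 3-kinase. It averaged 12.4 ± 4.17 FPKM in Akt/Nras/Foxo1AAA tumours, 5.90 ± 0.913 in Akt/Nras tumours and 38.4 ± 5.58 in normal livers (0.92, adjusted p = 0.0193). Against normal liver Irs2, an adaptor of the insulin receptor, fell in both tumour groups (-1.26, adjusted p = 0.00131, and -0.77, adjusted p = 0.0187), as did Insr, the receptor gene (-0.80, adjusted p = 8.82e-06, and -1.06, adjusted p = 6.64e-07). Rragd, which helps amino acids activate mTORC1, rose in both (2.84, adjusted p = 3.33e-07, and 3.47, adjusted p = 5.23e-08), as did Eif4ebp1, a brake on translation (0.51, adjusted p = 0.00471, and 0.41, adjusted p = 0.0136, or 0.26 without Akt/Nras tumour 1).

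None of 11 tested cell cycle and death targets was called between the tumour groups (median -0.05). The highest of them by mean over all 10 libraries, the arrest gene Cdkn1a, averaged 48.6 ± 23.7 FPKM in Akt/Nras/Foxo1AAA tumours, 62.4 ± 6.82 in Akt/Nras tumours and 0.665 ± 0.275 in normal livers (-0.45 between the tumour groups, adjusted p = 0.3). Without Akt/Nras/Foxo1AAA tumour 3 it was called lower (-0.81, adjusted p = 0.0119). Against normal liver 3 rose and 2 fell in Akt/Nras/Foxo1AAA tumours and 6 rose and 2 fell in Akt/Nras tumours. Cdkn1a rose by 4.81 and 5.26 (adjusted p = 1.46e-07 and 4.31e-08) and Ccnd2, a cyclin of the G1 phase, by 2.09 and 1.97 (adjusted p = 4.66e-07 and 3.62e-07). With its mean of 0.665 FPKM in normal livers, Cdkn1a entered the test through the tumours. Rbl2, a pocket protein of quiescent cells, fell by 1.11 in both (adjusted p = 6.41e-06 and 4.3e-06), and the death ligand gene Tnfsf10 by 0.61 and 1.06 (adjusted p = 0.00902 and 0.000225), the first of which was not called with equal totals (-0.15).

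The classical hepatic FoxO targets G6pc, Pck1 and Igfbp1 were named between the tumour groups after their values were seen. G6pc, which releases glucose, averaged 13.7 ± 3.64 FPKM in Akt/Nras/Foxo1AAA tumours, 13.1 ± 2.51 in Akt/Nras tumours and 169 ± 26.1 in normal livers. Igfbp1, a binding protein of insulin-like growth factors, averaged 398 ± 401, 369 ± 161 and 26.7 ± 10.6 FPKM. For both genes the tumour groups overlapped and were not called apart (adjusted p = 0.903 and 0.812), while against normal liver G6pc fell (-3.55, adjusted p = 1.44e-07, and -3.59, adjusted p = 6.82e-08) and Igfbp1 rose (3.45, adjusted p = 0.000366, and 3.71, adjusted p = 0.000173). Pck1, a rate-setting enzyme of glucose synthesis, averaged 387 ± 79.8, 262 ± 115 and 1117 ± 177 FPKM (0.66 between the tumour groups, adjusted p = 0.203, or 0.22 without Akt/Nras tumour 2). Against normal liver Pck1 fell in both tumour groups (-1.53, adjusted p = 0.0011, and -2.19, adjusted p = 7.25e-05), as did Lpin1, a lipid phosphatase gene (-1.74, adjusted p = 0.00105, and -1.98, adjusted p = 0.000351).

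Promoters were available for 48 of the 58 listed targets, as 60 promoters. The forkhead motif GTAAACA occurred in 5 of them (8.33%, against 3.65% of all), those of Bbc3, Bcl2l11, Selenop, Trim63 and Txnip. The core AAAACAA occurred in 6 promoters of 5 genes (10%, against 9.02% of all), Atg14, Cdkn2d, Igfbp1, Irs2 and Selenop. Of the 9 genes called between the tumour groups, Selenop had a match.

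Lists of genes induced by other regulators known to act on Klf15, Pdk4, Ccng2 or Gadd45a were read as well. The activity of these regulators and their part in the levels of the members were not tested. Of 10 glucocorticoid-induced genes, 2 were higher and 4 lower in Akt/Nras/Foxo1AAA tumours than in normal liver, and 5 higher and 3 lower in Akt/Nras tumours. The shares of all tested genes called, given above, stand beside these counts and those of the next lists. Sult1e1, an oestrogen sulfotransferase gene, rose in both (2.85, adjusted p = 0.000236, and 3.29, adjusted p = 6.52e-05), and so did Fkbp5, a brake on the glucocorticoid receptor (0.71, adjusted p = 0.0238, and 1.0, adjusted p = 0.0036). The first call of Fkbp5 was lost without Akt/Nras/Foxo1AAA tumour 1 or 3 or normal liver 1, 2 or 4 (adjusted p = 0.052 to 0.106). Mt2, a metallothionein gene, rose in Akt/Nras tumours (3.06, adjusted p = 0.00371) and was not called in Akt/Nras/Foxo1AAA tumours (1.49, adjusted p = 0.102). Tat, a tyrosine-degrading enzyme gene, fell in both (-2.07, adjusted p = 7.7e-05, and -2.43, adjusted p = 1.75e-05), as did Tsc22d3 (-0.92, adjusted p = 0.00227, and -1.09, adjusted p = 0.000601) and Errfi1 (-0.94, adjusted p = 0.0015, and -0.84, adjusted p = 0.00268). With equal totals Errfi1 was not called in Akt/Nras/Foxo1AAA tumours (-0.22) nor Tsc22d3 in Akt/Nras tumours (-0.18). Per1, a clock gene, was the one called between the tumour groups, at 5.45 ± 2.44 FPKM in Akt/Nras/Foxo1AAA and 11.1 ± 3.18 FPKM in Akt/Nras tumours (-0.95, adjusted p = 0.0415).

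Of 12 genes induced by the fasting receptor PPARA, 5 were higher and 7 lower in Akt/Nras/Foxo1AAA tumours than in normal liver, and 4 higher and 6 lower in Akt/Nras tumours. Fgf21, a fasting hormone gene, rose in both (3.89, adjusted p = 5.15e-06, and 2.94, adjusted p = 2.73e-05), as did Vnn1 (2.68, adjusted p = 5e-05, and 2.45, adjusted p = 7.48e-05), while Ehhadh, a peroxisomal enzyme gene, fell (-2.61, adjusted p = 6.04e-07, and -3.06, adjusted p = 1.15e-07). Relative to Akt/Nras tumours, 4 were higher and 1 lower in Akt/Nras/Foxo1AAA tumours. Among them were Cpt1a (0.56, adjusted p = 0.0202), Acadm (0.48, adjusted p = 0.0379) and, in the lower direction, Acot1 (-0.61, adjusted p = 0.0151). Pdk4, itself a PPARA-induced gene, lay on the lower side between the tumour groups, as given above.

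All 12 tested p53 targets rose against normal liver in both tumour groups (Cdkn1a is on this list too), with a median log2 change of 1.46 in Akt/Nras/Foxo1AAA tumours and 1.60 in Akt/Nras tumours, and none was called between them (median -0.17). The list was chosen with earlier results of these data known, and Cdkn1a entered the test through the tumours. Phlda3, an inhibitor of AKT membrane binding, rose by 4.13 and 4.28 (adjusted p = 3.15e-07 and 1.33e-07). Bax, a mediator of apoptosis and the highest p53 target by mean over all 10 libraries, averaged 48.6 ± 6.70 FPKM in Akt/Nras/Foxo1AAA tumours, 51.0 ± 3.95 in Akt/Nras tumours and 19.6 ± 1.03 in normal livers (-0.07 between the tumour groups, adjusted p = 0.706). Gadd45a, which shares p53 as a regulator, stood higher in Akt/Nras/Foxo1AAA than in Akt/Nras tumours in all libraries without passing the test, as given above.

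Likeness of pattern was measured as the root mean square difference between centred log2(FPKM + 1) profiles over the 10 libraries, among 6025 genes with a mean of at least 5 FPKM. The nearest to Foxo1 were Fam131c, Mup20 and H4c9, with differences of 1.04, 1.06 and 1.08, farther off than the nearest gene of any other member. Fam131c averaged 16.2 FPKM in Akt/Nras/Foxo1AAA tumours, 4.07 in Akt/Nras tumours and 3.51 in normal livers. Nearest genes to other members were Gabpa for Foxo3 (0.05), Capn7 for Foxo4 (0.06), Tm2d2 for Sesn1 (0.09) and Itgb5 for Pik3ip1 (0.07). For Ccng2 it was Vmp1 (0.13), for Gadd45a Rhod (0.21), for Klf15 Selenoo (0.12) and for Pdk4 Slc6a6 (0.13). Selenoo averaged 4.41 FPKM in Akt/Nras/Foxo1AAA tumours, 3.69 in Akt/Nras tumours and 21.0 in normal livers, a spacing of groups like that of Klf15. For a gene as low as Pik3ip1 the added 1 FPKM narrows the profile, so nearness does not mean like folds. Itgb5 averaged 67.6, 55.9 and 34.6 FPKM in the same order, and Pik3ip1 1.39, 1.03 and 0.196 FPKM.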

How the data were processed

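RNA sequencing of 10 mouse libraries was analysed, grouped by their titles. The authors deposited 1 table of FPKM values per gene and library, per the file headers. The submitters' processing notes name FastQC 0.11.7 and GRCm38. The aligner, the counter and the strand setting were not given in the sources used here. Per the labels' protocols, libraries were made by polyA capture or rRNA removal, without saying which. The coordinates in the table are of an unnamed build: 1472 of 52073 genes shared with the supplied GRCm38 annotation had the same ones. FPKM multiplied by gene length gave whole reads within 0.1 for 100.0% of values. Replicate libraries differed from each other beyond sampling noise.

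Genes with at least 1 FPKM in at least 3 libraries were tested, 12439 of 56748. All 10 members passed. The deposited values were not rescaled. All libraries entered 1 limma 3.58.1 fit on log2(FPKM + 1) in R 4.3.3, with a variance trend, two-sided tests and Benjamini-Hochberg adjustment over all tested genes. Family shares were compared by exact permutation over samples. The fit was tested on simulated data. Other pseudocounts, filters, scalings, fits and left-out libraries were tried.

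The members and gene lists were chosen with earlier results of these data known. Named list genes were, for each list and comparison, the called ones with the largest log2 changes, at most 2 each way, and where none was called the one with the highest mean. Mttp, Nbr1, Cpt1a, Acadm and, between the tumour groups, G6pc, Pck1 and Igfbp1 were named after their values were seen. A few genes taken by the rules are not reported here. Sequences came from the supplied GRCm38 transcripts and RefSeq promoters of GRCm38.p6, with matches searched by letters.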

Additional observations from a re-analysis of the deposited data

Results flagged for a closer look

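Pik3ip1 in normal liver 4 stood at 0.372 FPKM, against 0.122 to 0.160 FPKM in the other 3 normal livers. The gap to the nearest of them was 0.849 of the range of the group, above Dixon's critical value for 4 samples. Its level there rests on 14 reads. It was the one outlier in 18 groups of 4 libraries looked at, and chance flags about 1 in 20 groups. All tumours, at 0.954 FPKM or more, stayed above it.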

How the results depend on the processing

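Counts of all genes called moved by over 1.5 times in these settings. With a minimum of 5 FPKM, 5372 were called in Akt/Nras tumours and 5027 in Akt/Nras/Foxo1AAA tumours against normal liver, since fewer genes were tested. Between the tumour groups 1500 were called as deposited, 923 with no filter, 3897 with equal totals (656 higher, 3241 lower, against 986 and 514 as deposited), 3668 with array weights, 10 with the 6 tumours alone and 550 to 1953 with 1 library left out. Of the calls there 65.7% were higher, 39.3% with totals equal without the 50 most abundant genes and 55% with the upper quartile. The corresponding shares against normal liver were 78.1% and 54.4% in Akt/Nras/Foxo1AAA and 77.3% and 57.3% in Akt/Nras tumours. Members called with a minimum of 5 FPKM were 4 in each comparison against normal liver, with 5 tested. Between the tumour groups 3 were called with equal totals, 3 with array weights and 1 to 2 with 1 library left out.

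Labels do not say that replicate numbers pair samples, and same-numbered libraries correlated at -0.17 to 0.112. With the replicate number as a block 468 genes were called between the tumour groups, and none of the listed FoxO targets. Gadd45a (Akt/Nras tumours, adjusted p = 0.0661), Sesn3 (Akt/Nras/Foxo1AAA tumours, adjusted p = 0.0566) and Atg12 lost their calls against normal liver under the block, as did Pdk2, Per1, Prmt1, Sirt1 and Acadm between the tumour groups.

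With equal totals, directions against normal liver turned for Foxo1 (0.58), Foxo3 (0.16), Foxo4 (0.56), Sesn1 (0.05), Ogt (0.12) and Sirt2 (0.36) in Akt/Nras tumours and for Foxo4 (0.49) and Sesn1 (0.08) in Akt/Nras/Foxo1AAA tumours. Foxo4 (-0.06) and Klf15 (-0.04) turned between the tumour groups. Without the 50 most abundant genes in the totals, Foxo1 (0.35), Foxo4 (0.31) and Sirt2 (0.12) turned in Akt/Nras and Foxo4 (0.38) in Akt/Nras/Foxo1AAA tumours. With 1 library left out, Bax ranged from -0.15 to 0.04 between the tumour groups. The difference in the share of Sesn1 among sestrins ranged from -1.52 to 2.05 points there. That of Sesn3 ranged from -0.375 to 5.62 points in Akt/Nras/Foxo1AAA and from -3.43 to 1.3 points in Akt/Nras tumours against normal liver. All were uncalled as deposited except Foxo3, Foxo4, Sesn1, Ogt and Sirt2 in Akt/Nras tumours and Sesn1 in Akt/Nras/Foxo1AAA tumours. Beyond the settings' own construction the cause was not tested. At 5 to 14 reads per normal liver, depth limits Pik3ip1 most.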
